A study of Mus musculus with 8 samples.

Results

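Mast cell genes in the mouse aorta were described by 9 genes that mast cells transcribe: Cpa3, Mcpt4, Tpsb2, Tpsab1, Cma1, Kit, Ms4a2, Fcer1a and Hdc. They were found by gene symbol among the 48607 loci of the table, and each symbol named 1 locus. Whole aortas were sequenced as poly(A) RNA from mice without apolipoprotein E, with or without the natriuretic peptide receptor NPRC (encoded by Npr3). The titles name 5 libraries ApoE-/-, with numbers 1 to 5, and 3 libraries NPRC-/-ApoE-/-, with numbers 1 to 3. All of the mice carried the ApoE-/- deletion, which raises plasma cholesterol, and all were fed a Western diet for 12 weeks. The NPRC-/- allele was a systemic frameshift made with CRISPR in exon 1 of Npr3 on the C57BL/6 background, so every cell type of the body carried it, mast cells included. The age of these mice at tissue collection is not given in the sources used here. The submitters described 5 and 3 mice, so each library was taken as 1 mouse. The methods of the study instead give groups of equal size, which the libraries analysed here are not.

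The labels of 4 libraries contradict each other, and this decides every comparison that follows. The genotype entry matched the title for ApoE-/- 1, 2 and 3 and for NPRC-/-ApoE-/- 3. Of the libraries with an ApoE-/- title, numbers 4 and 5 were entered as Nprc-/-Apoe-/-. Of those with an NPRC-/-ApoE-/- title, numbers 1 and 2 were entered as Apoe-/-. Both groupings hold 5 against 3 libraries. Values are by title unless the genotype entry is named, and the results by genotype entry are given for the 9 genes and for the medians of the gene lists. The total count was 62969165 to 86693276 per library. Npr3 was at 0.62 to 1.69 FPKM in the titled ApoE-/- libraries and at 1.13 to 1.39 FPKM in the titled NPRC-/-ApoE-/- libraries, and since a frameshift need not lower a transcript, its level does not check either label. FPKM scales the fragments of a gene to its transcript length and to the library total, giving a level that can be compared between genes.

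Mast cells are long-lived tissue granulocytes that settle around vessels, in the artery mainly in the adventitia, and are known from human and mouse atherosclerotic lesions. Stem cell factor acting on the receptor KIT keeps them alive, and IgE bound to the high-affinity receptor FceRI triggers the release of granules that hold histamine, heparin and proteases. The proteases of connective tissue mast cells are chymases (the products of Cma1 and Mcpt4), tryptases (Tpsb2 and Tpsab1) and carboxypeptidase A3 (Cpa3), while Mcpt1 and Mcpt2 mark mucosal mast cells.

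The 9 genes lie on 7 chromosomes in GRCm38, and for 8 of them the start and end in the table were those of the GENCODE M21 gene. The chymase genes Cma1 (chr14:55941451-55944675) and Mcpt4 (chr14:56059629-56062313) share the minus strand of chromosome 14 with 114954 bases between them. The tryptase genes Tpsab1 (chr17:25343245-25345562, minus strand) and Tpsb2 (chr17:25366305-25369098, plus strand) lie 20743 bases apart. Since reads can be assigned to the wrong copy of a duplicated gene, the annotated protein-coding transcripts were compared. The tryptase pair shared 9 words of 31 bases, and the chymase pair shared 0.

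GATA2, GATA1 and MITF are transcription factors that mast cells are known to need, so the promoters were searched for their binding words. RefSeq promoters (GRCm38.p6, 250 bases before to 50 bases after the start) were held for 7 of the 9 genes. The GATA word AGATAA, with T allowed as its first letter and G as its last, was found on either strand in the promoters of 6 of these 7 genes and in 29.8% of all 32851 promoters. The gene without a match was Kit. The E-box word CACGTG, with T allowed as the third letter, was in 1 of 7, Fcer1a, and in 20.4% of all promoters. Stretches of 150 bases before the start are shown because these genes are among those whose titled groups did not overlap, and they lie on the minus strand at chr3:20242182-20242331 (Cpa3), chr14:56062311-56062460 (Mcpt4), chr14:55944676-55944825 (Cma1) and chr19:11623720-11623869 (Ms4a2). Capitals mark GATA words, and a word that lies on the other strand appears as its reverse complement, as in Cma1.
Cpa3: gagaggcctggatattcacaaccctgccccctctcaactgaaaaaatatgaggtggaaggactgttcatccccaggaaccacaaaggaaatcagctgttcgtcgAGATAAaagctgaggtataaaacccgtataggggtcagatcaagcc
Mcpt4: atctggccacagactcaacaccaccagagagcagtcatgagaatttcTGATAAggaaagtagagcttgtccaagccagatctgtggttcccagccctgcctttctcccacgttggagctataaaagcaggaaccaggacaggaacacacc
Cma1: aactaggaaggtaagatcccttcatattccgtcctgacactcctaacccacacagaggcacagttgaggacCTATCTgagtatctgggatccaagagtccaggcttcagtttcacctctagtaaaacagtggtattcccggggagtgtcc
Ms4a2: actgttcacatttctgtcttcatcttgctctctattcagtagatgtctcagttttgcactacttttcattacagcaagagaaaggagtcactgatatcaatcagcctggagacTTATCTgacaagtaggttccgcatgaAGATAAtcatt
The match nearest to the start was 6 to 11 bases before it in Ms4a2, and the match of Cpa3 was 41 to 46 bases before it. A match to these letters is a description of the sequence and not a measured binding site.

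By title, the transcripts of the granule proteases were lower in the NPRC-/-ApoE-/- libraries. Cma1, Mcpt4, Tpsb2 and Cpa3 were 3.74, 3.49, 4.07 and 2.89-fold lower, and for each of them every titled NPRC-/-ApoE-/- library was below every titled ApoE-/- library. The alpha and beta chains of the IgE receptor, Fcer1a and Ms4a2, were also without overlap. Kit, the receptor that keeps mast cells alive, differed little between the titled groups (log2 fold change -0.18, standard error 0.40). By genotype entry none of the 9 genes separated the groups. In whole aorta, fewer mast cells and less of these transcripts per mast cell cannot be told apart.

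Cma1, the mouse counterpart in sequence of the human chymase gene, had the highest mean level of the 9 genes in the titled ApoE-/- libraries, whereas in the titled NPRC-/-ApoE-/- libraries Kit did. The FPKM of Cma1 was 2.72, 6.65, 1.96, 2.46 and 3.96 in ApoE-/- 1 to 5 and 0.96, 0.75 and 1.03 in NPRC-/-ApoE-/- 1 to 3. The highest value stood in ApoE-/- 2, and the groups did not overlap. The mean was 3.55 ± 1.88 FPKM (SD, n = 5) against 0.91 ± 0.15 (SD, n = 3). The log2 fold change was -1.90 with a standard error of 0.40, with an unadjusted p of 0.00103 and an adjusted p of 0.222 in edgeR's quasi-likelihood test (Benjamini-Hochberg, over all loci of the fit).

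Mcpt4, the chymase characteristic of connective tissue mast cells, was at 2.93, 5.84, 1.54, 1.51 and 4.74 FPKM in ApoE-/- 1 to 5 and at 0.61, 1.06 and 1.06 FPKM in NPRC-/-ApoE-/- 1 to 3. Its spread among the titled ApoE-/- libraries was wide, with ApoE-/- 2 and 5 far above ApoE-/- 3 and 4, yet the lowest of the 5 was above all 3 NPRC-/-ApoE-/- libraries. The means of 3.31 ± 1.93 FPKM (SD, n = 5) and 0.91 ± 0.26 (SD, n = 3) gave a log2 fold change of -1.80 (standard error 0.49, unadjusted p = 0.00528, adjusted p = 0.255 in edgeR's quasi-likelihood test). The mean levels of Cma1 and Mcpt4 differed by less than the spread between libraries in both groups.

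Tpsb2, the main tryptase of mouse connective tissue mast cells, was at 1.35, 3.63, 1.72, 0.93 and 2.24 FPKM in ApoE-/- 1 to 5 and at 0.40, 0.66 and 0.35 FPKM in NPRC-/-ApoE-/- 1 to 3. The groups did not overlap, and the lowest titled ApoE-/- library, number 4, was the one nearest to the other group. Tpsb2 had the largest fold change of the proteases, with a log2 value of -2.03 (standard error 0.45, unadjusted p = 0.00146, adjusted p = 0.224 in edgeR's quasi-likelihood test). Its mean was 1.97 ± 1.04 FPKM (SD, n = 5) against 0.47 ± 0.17 (SD, n = 3). Tpsab1, the neighbouring tryptase gene, which the C57BL/6 strain is known not to express as protein, had 8, 4 and 4 counts in ApoE-/- 3, ApoE-/- 4 and NPRC-/-ApoE-/- 2 and 0 counts in the other 5 libraries. At 16 counts in all, no difference in Tpsab1 was detectable at this depth.

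Cpa3, the carboxypeptidase stored with the chymases, was at 1.81, 3.29, 1.33, 1.13 and 1.96 FPKM in ApoE-/- 1 to 5 and at 0.58, 0.65 and 0.67 FPKM in NPRC-/-ApoE-/- 1 to 3. The titled NPRC-/-ApoE-/- libraries lay close together, within a factor of 1.16, while the titled ApoE-/- libraries spanned a factor of 2.91. The mean was 1.90 ± 0.85 FPKM (SD, n = 5) against 0.63 ± 0.05 (SD, n = 3), and the log2 fold change was -1.53 (standard error 0.34, unadjusted p = 0.00149, adjusted p = 0.224 in edgeR's quasi-likelihood test). Cpa3 and Tpsb2 did not differ in mean level beyond the spread between libraries.

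**Figure D1:**
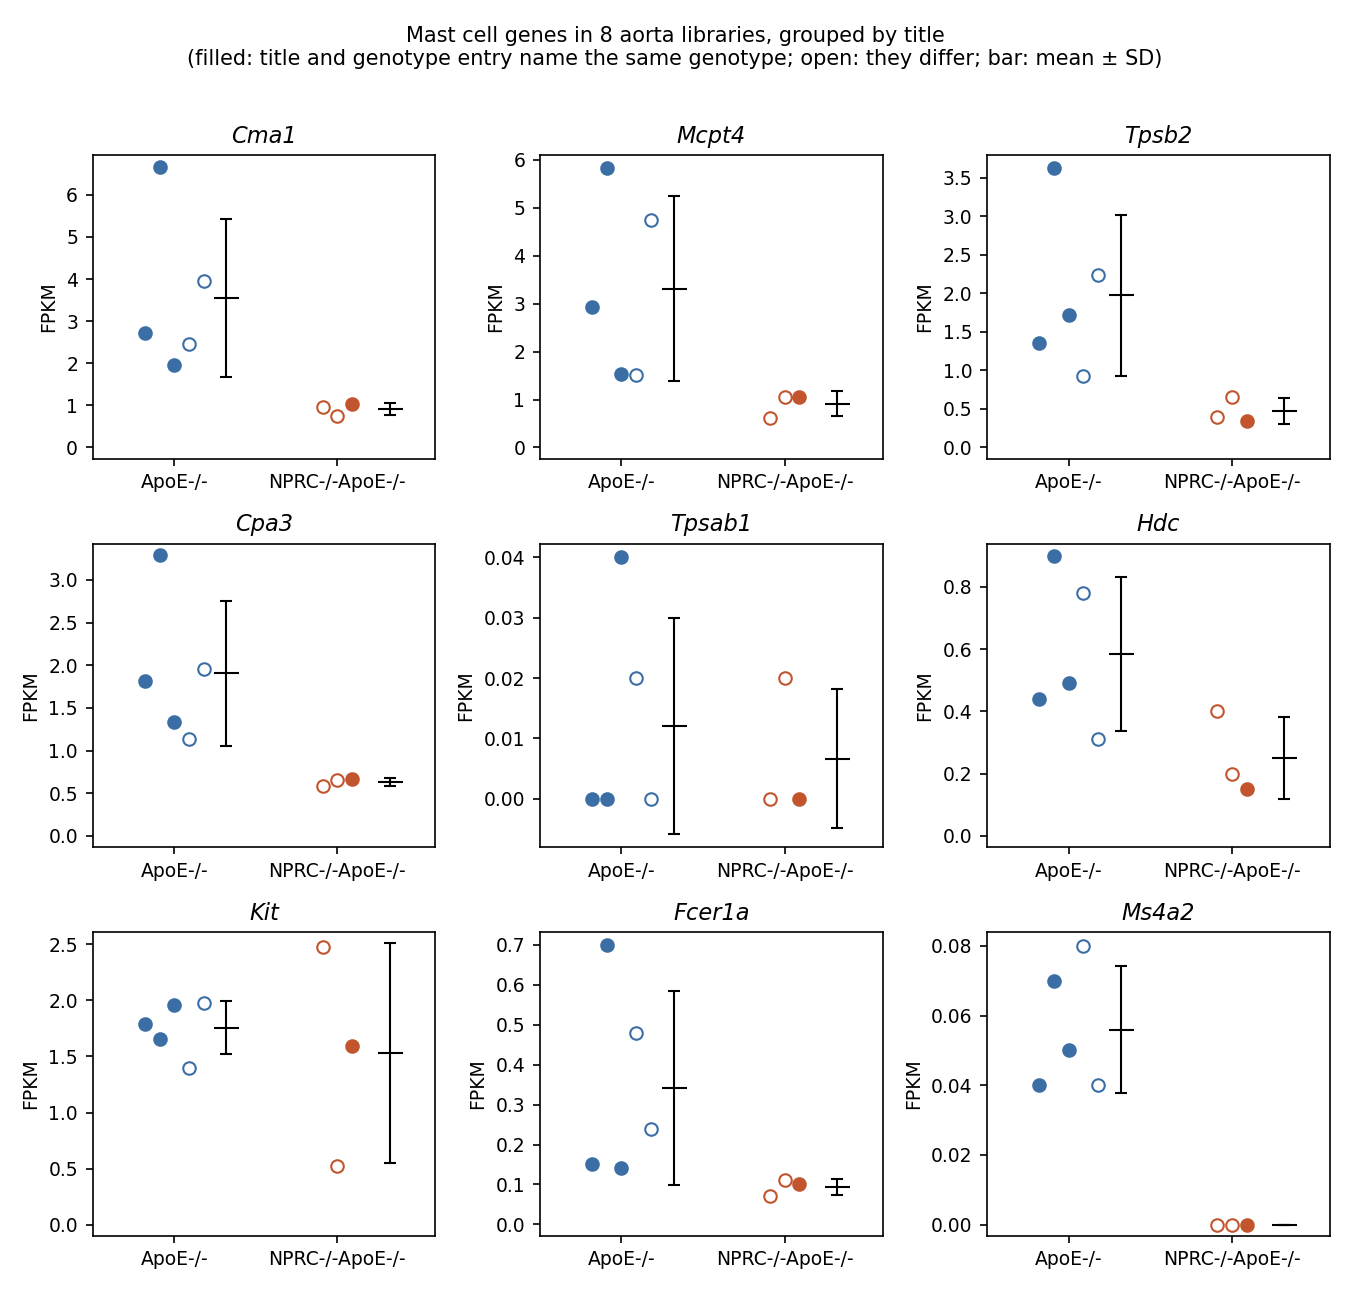
FPKM of the 9 genes in each library, grouped by title (blue ApoE-/-, orange NPRC-/-ApoE-/-), with bars for mean ± SD and open points for libraries whose genotype entry names the other genotype. The 4 proteases Cma1, Mcpt4, Tpsb2 and Cpa3 separate by title with no overlap, and Kit does not.

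In the titled ApoE-/- libraries, the genes of histamine synthesis and of the IgE receptor were at lower mean levels than the 4 proteases above. Hdc, histidine decarboxylase, which makes histamine, was at 0.44, 0.90, 0.49, 0.78 and 0.31 FPKM in ApoE-/- 1 to 5 and at 0.40, 0.20 and 0.15 FPKM in NPRC-/-ApoE-/- 1 to 3. The groups overlapped, since NPRC-/-ApoE-/- 1 was above ApoE-/- 5. The means were 0.58 ± 0.25 FPKM (SD, n = 5) and 0.25 ± 0.13 (SD, n = 3). Hdc was below the minimum level of the filter, and in the fit on all loci with at least 1 count its log2 fold change was -1.22 (standard error 0.44, unadjusted p = 0.0194, adjusted p = 0.402 in edgeR's quasi-likelihood test). This call was lost without NPRC-/-ApoE-/- 2 (-1.05) and without NPRC-/-ApoE-/- 3 (-0.96).

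Fcer1a, the chain of FceRI that binds IgE, was at 0.15, 0.70, 0.14, 0.48 and 0.24 FPKM in ApoE-/- 1 to 5 and at 0.07, 0.11 and 0.10 FPKM in NPRC-/-ApoE-/- 1 to 3. The groups did not overlap, but ApoE-/- 1 and 3 stood close to the NPRC-/-ApoE-/- libraries, with 15 counts each against 8 to 11. In the fit on all loci the log2 fold change was -1.78 (standard error 0.67, unadjusted p = 0.0235, adjusted p = 0.417 in edgeR's quasi-likelihood test). The call of Fcer1a was lost when ApoE-/- 2 (-1.38), ApoE-/- 4 (-1.59), NPRC-/-ApoE-/- 1 (-1.60) or NPRC-/-ApoE-/- 3 (-1.84) was left out.

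Ms4a2, the signal-amplifying beta chain of FceRI and a gene of mast cells and basophils, had 11, 16, 16, 23 and 12 counts in ApoE-/- 1 to 5 and 0 counts in each of the 3 titled NPRC-/-ApoE-/- libraries. All 78 counts thus lay in the libraries titled ApoE-/-, including both that are entered as Nprc-/-Apoe-/-. Against a limit of 3 counts over the group, Ms4a2 was at least 15.6-fold lower in the titled NPRC-/-ApoE-/- libraries, a limit that covers counting error only. Its unadjusted p was 0.000276 and its adjusted p 0.218 in edgeR's quasi-likelihood test on all loci.

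Kit, which is also transcribed in melanocytes, interstitial cells of Cajal and progenitor cells, was at 1.79, 1.66, 1.96, 1.40 and 1.98 FPKM in ApoE-/- 1 to 5 and at 2.48, 0.52 and 1.59 FPKM in NPRC-/-ApoE-/- 1 to 3. Both the highest and the lowest library were titled NPRC-/-ApoE-/-, whereas the 5 titled ApoE-/- libraries were within a factor of 1.41. The log2 fold change was -0.18 (standard error 0.40, unadjusted p = 0.668, adjusted p = 0.866 in edgeR's quasi-likelihood test), and it turned to 0.26 without NPRC-/-ApoE-/- 2. Markers of the other cells that use KIT were measured beside it. The summed FPKM of the melanocyte genes Tyr, Dct, Pmel and Mlana was 0.32 to 0.67 in the titled ApoE-/- libraries and 0.35 to 0.59 in the others. Ano1, the only gene listed for interstitial cells of Cajal, was at 4.69 to 7.09 and 5.67 to 6.60 FPKM. Its level alone does not show that interstitial cells of Cajal were present. The part of melanocytes and interstitial cells of Cajal in the level of Kit was not tested.

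Of the 5 genes that passed the filter (at least 1 FPKM in at least 3 libraries), 4 met the criterion of the study in the lower direction, a fold change below 0.5 with an unadjusted p under 0.05, and 0 in the higher direction. The same lower call was made for 2.39% of all 20506 loci tested. With all loci that had a count in the fit, 7 of the 9 genes met it, beside 3.45% of 44689 loci. None of the 4 called genes reached 1 FPKM in all 3 titled NPRC-/-ApoE-/- libraries, so they passed only through the titled ApoE-/- libraries, where they were high, and nothing is read from the count of 4 in 5. The median log2 fold change was -1.80 over the 5 genes and -1.78 over the 9, beside -0.01 and -0.04 over all loci in the same fits. In CPM, the counts scaled to the library total, 6 of the 9 genes had every titled NPRC-/-ApoE-/- library below every titled ApoE-/- library, beside 3.69% of the filtered loci and 3.35% of all loci with a count. No locus had an adjusted p under 0.05 in edgeR's quasi-likelihood test in either fit: 0 of 20506 (2797 with an unadjusted p under 0.05) and 0 of 44689 (4666). DESeq2, on the filtered loci, gave adjusted p values of 0.00206 for Cpa3, 0.0107 for Mcpt4, 0.000666 for Tpsb2 and 0.000437 for Cma1. Kit was at 0.878 in the same DESeq2 fit. On all loci with a count DESeq2 gave 0.109 for Hdc, 0.166 for Fcer1a and 0.000897 for Ms4a2. Whether the 4 proteases pass an adjusted threshold thus depended on the tool. How many of all loci pass it in DESeq2 was not counted, so nothing particular to these genes is read from it. By the criterion of the study DESeq2 called 798 of the 20506 loci.

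Gene by gene, the difference of mean log2 CPM between the titled groups was -1.44 for Cpa3, -1.65 for Mcpt4, -1.90 for Tpsb2, -1.78 for Cma1 and -1.37 for Fcer1a. Each gave p = 0.036 in a two-sided exact permutation test, the smallest p that this form of the test allows with 5 against 3 libraries. Groups without overlap fix this p, so it adds nothing to the lack of overlap given above. The same exact permutation test gave p = 0.071 for Hdc and p = 0.643 for Kit. By genotype entry it gave p from 0.536 (Fcer1a) to 0.964 (Cpa3 and Kit) over the 9 genes.

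By genotype entry, 0 of the 5 genes met the criterion in the filtered fit, beside 0.263% of the loci in the lower direction, and 0 of 9 in the fit on all loci, beside 0.714%. None of the 9 had entered Nprc-/-Apoe-/- libraries all below the others, which was so for 0.562% of loci. The log2 fold changes were -0.28 for Cpa3 (standard error 0.58), 0.02 for Mcpt4 (0.72), -0.42 for Tpsb2 (0.74), -0.06 for Cma1 (0.70) and 0.00 for Kit (0.40). These standard errors were larger than the changes, and larger than the standard errors by title for all of the proteases. For Cma1 the levels were 2.61 ± 2.40 FPKM (SD, n = 5) and 2.48 ± 1.47 (SD, n = 3) under this grouping. Cma1 in the libraries entered Apoe-/- ranged over a factor of 8.87, since they held both its highest library, ApoE-/- 2, and its lowest, NPRC-/-ApoE-/- 2.

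**Figure D2:**
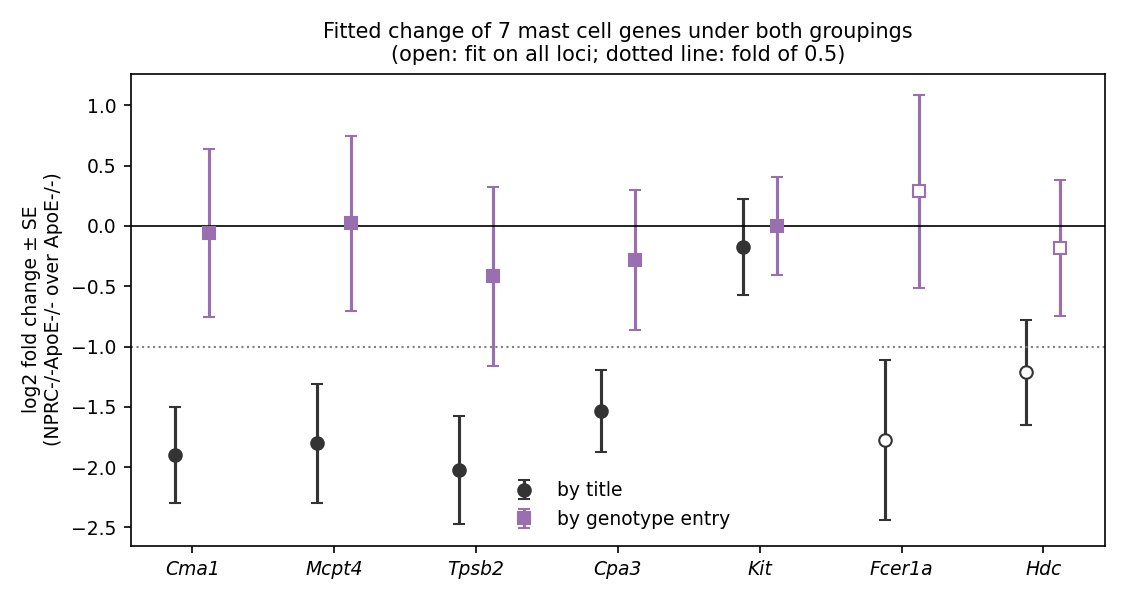
Log2 fold change ± standard error of 7 of the genes with libraries grouped by title (black circles) and by genotype entry (purple squares), from edgeR, with open symbols for genes fitted only among all loci. Proteases lie between -2.03 and -1.53 by title and between -0.42 and 0.02 by genotype entry.

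Taking the 4 libraries on which both labels match leaves 3 ApoE-/- mice and 1 NPRC-/-ApoE-/- mouse, which allows values and no test. Their log2 fold changes were -1.57 for Cpa3, -1.61 for Mcpt4, -2.57 for Tpsb2, -1.78 for Cma1 and -0.10 for Kit. The lone NPRC-/-ApoE-/- library was below the 3 others in Cpa3, Mcpt4, Tpsb2, Cma1, Fcer1a, Ms4a2 and Hdc. Kit was below them in FPKM (1.59 against 1.66 to 1.96) but not in CPM, where it was above ApoE-/- 2.

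The proteases kept nearly the same order of libraries. Among the titled ApoE-/- libraries, Cpa3 and Mcpt4 both ran from ApoE-/- 2, the highest, through 5, 1 and 3 to 4. ApoE-/- 2 and 5 were also the highest libraries for Tpsb2 and Cma1. The IgE receptor chains and Hdc were ordered otherwise, with ApoE-/- 4, the lowest library for Cpa3 in this group, second in Fcer1a and Hdc and first in Ms4a2. ApoE-/- 2 was the highest of all 8 libraries for 6 of the 9 genes. As the titled groups lay apart in Cpa3 and hold 5 and 3 libraries, no correlation of the other genes with Cpa3 is given.

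**Figure D3:**
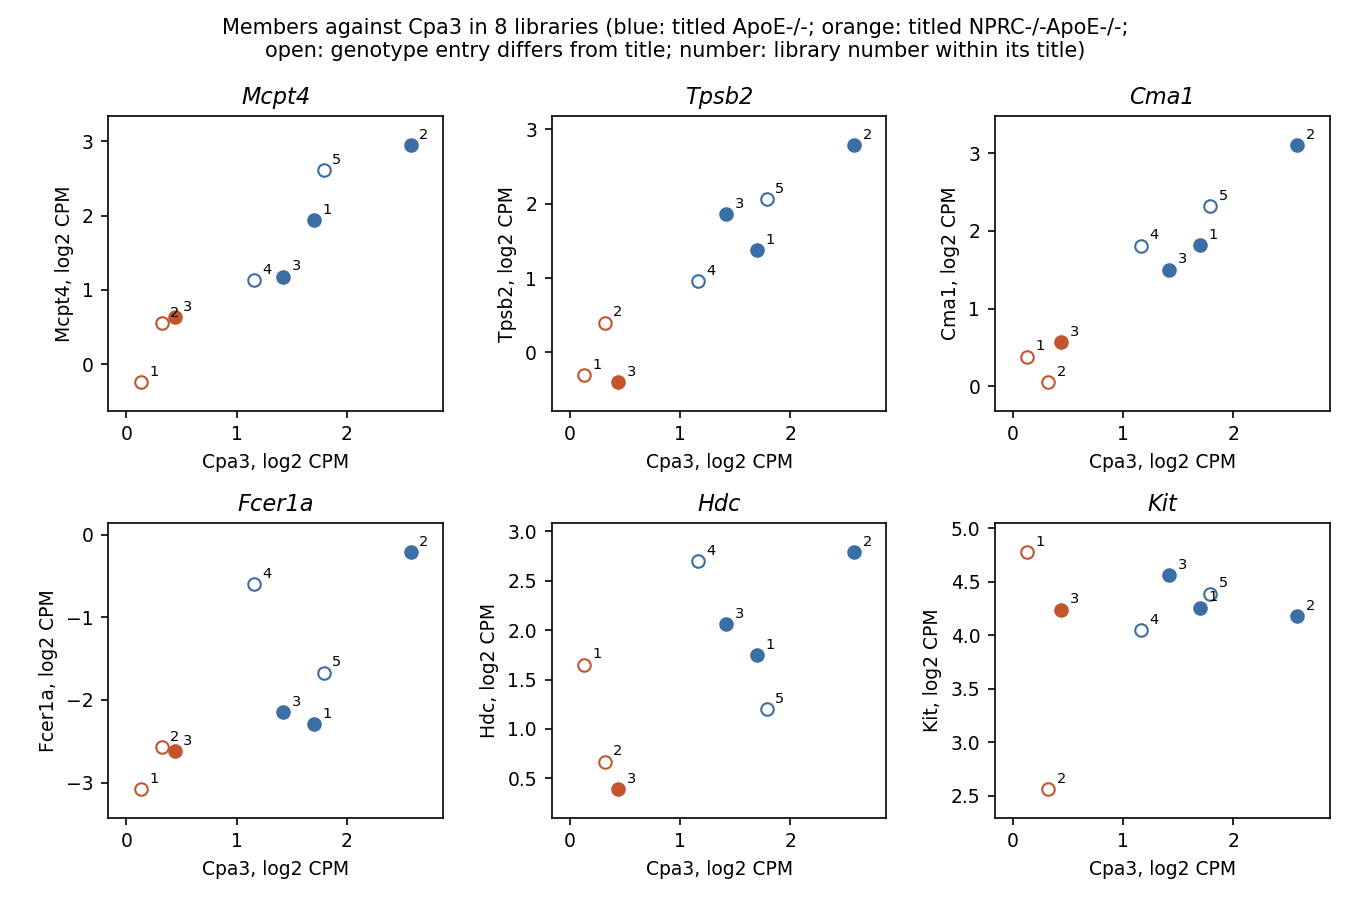
Log2 CPM of 6 genes against log2 CPM of Cpa3 in the 8 libraries, coloured by title, with open points where the genotype entry differs and numbers for the library within its title. Mcpt4, Tpsb2 and Cma1 are highest where Cpa3 is, in ApoE-/- 2, and lie lowest in the titled NPRC-/-ApoE-/- libraries, whereas the lowest Kit level is in NPRC-/-ApoE-/- 2.

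Most of the other genes known from mast cells did not meet the criterion in the filtered fit by title. Of 11 other granule and protease genes 9 were in the table, 4 were tested and 0 met it, with a median log2 fold change of -0.61 by title (-0.01 over all loci) and -0.06 by genotype entry. Slc18a2, the vesicular transporter that loads monoamines into granules, was at 1.42 ± 0.51 FPKM (SD, n = 5) and 0.77 ± 0.16 (SD, n = 3), with no overlap and a log2 fold change of -0.87. Tph1, which starts serotonin synthesis, was below the filter at 0.08 to 0.16 FPKM in the titled ApoE-/- libraries and 0.01 to 0.03 FPKM in the others, with a log2 fold change of -2.39 (standard error 0.46) and an adjusted p of 0.218 in edgeR's quasi-likelihood test on all loci. Tph1 was the only granule gene called lower in that fit, beside 3.45% of all loci with a count. In the same fit 1 was called higher, Ctsg, with 85 counts in all and with overlap. Ctsg was at 0 to 0.04 FPKM in the titled ApoE-/- libraries and 0 to 0.75 FPKM in the others, where the mean of 0.25 FPKM rests on the highest library. Mcpt2, a mucosal mast cell protease, was at 0 counts in all 8 libraries, and no locus of the table carried the symbol Mcpt1 or Mcpt9.

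Of 11 other surface and marker genes, 5 were tested and 0 met the criterion, with a median log2 fold change of -0.36 (0.07 by genotype entry). In the fit on all loci 3 of 11 met it in the lower direction, beside 3.45% of the loci. They were Mrgprb1, without overlap, and Adora3 and Rgs13, both with overlap and the last with 61 counts in all. Mrgprb1, a member of the receptor family that answers basic secretagogues, was at 0.20 ± 0.08 FPKM (SD, n = 5) and 0.07 ± 0.03 (SD, n = 3). Mrgprb2 of the same family, with 66 counts in all, had a log2 fold change of -0.136 in the fit on all loci. In the filtered fit Cd200r3 (0.135) and Slc45a3 (0.31), the latter at a locus shared with Elk4, were higher. C5ar1 (-0.815, without overlap) and Cd63 (-0.85, with overlap) were lower, with unadjusted p of 0.00319 and 0.0345 in edgeR's quasi-likelihood test. Il1rl1, the receptor of interleukin-33, was at 0.40 to 0.78 FPKM by title in ApoE-/- and 0.25 to 0.37 FPKM in NPRC-/-ApoE-/-, without overlap and with a log2 fold change of -0.89. Its fold change did not reach the criterion. Enpp3, also known as the activation marker CD203c, had a log2 fold change of -0.36 with an unadjusted p of 0.126 in edgeR's quasi-likelihood test.

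Genes that carry the signal of FceRI into the cell are shared with macrophages and other leukocytes. Of 14 genes, 12 were tested. Of these, 8 had an unadjusted p under 0.05 in the lower direction and 0 in the higher, beside 7.13% and 6.51% of all loci. In the lower direction 4 met the criterion, beside 2.39% of all loci tested. The median log2 fold change of the 12 was -0.98 by title and -0.27 by genotype entry. Plcg1, a phospholipase of this pathway, stood the other way, at 4.65 to 5.63 FPKM in ApoE-/- and 5.50 to 5.91 FPKM in NPRC-/-ApoE-/- by title. In CPM its titled groups did not overlap, but its log2 fold change of 0.18 had an unadjusted p of 0.121 in edgeR's quasi-likelihood test. Fcer1g, the gamma chain that FceRI shares with Fc receptors of macrophages, was at 30.4 ± 11.9 FPKM (SD, n = 5) and 12.1 ± 5.31 (SD, n = 3), far above Fcer1a and Ms4a2. Its log2 fold change was -1.34. Lcp2, the adaptor SLP-76, was the signalling gene with no overlap among the tested ones that were lower, at 1.53 to 2.48 FPKM and 0.63 to 1.3 FPKM. Beside Fcer1g and Lcp2 (-1.06), the genes that met the criterion were Btk (-1.29) and Vav1 (-1.06). Lcp2 and Btk, lowest at 0.63 and 0.84 FPKM, did not reach 1 FPKM in all 3 titled NPRC-/-ApoE-/- libraries. Nothing is therefore read from the counts of genes in this list.

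In the list of lineage factors and the KIT axis, 10 of 11 genes were tested and 2 met the criterion in the lower direction, beside 2.39% of all loci tested. The median log2 fold change of the 10 was -0.30 (-0.23 by genotype entry). In the fit on all loci with a count 3 of the 11 met it, beside 3.45%, among them Gata1 with 24 counts in all. Kitl, stem cell factor, the ligand of KIT, was at 3.45 ± 0.99 FPKM (SD, n = 5) and 1.84 ± 0.47 (SD, n = 3). The groups overlapped, with a log2 fold change of -0.87 (standard error 0.25, adjusted p = 0.267 in edgeR's quasi-likelihood test). Gata2 and Mitf, factors that mast cells need and that other aortic cells also transcribe, had log2 fold changes of -0.27 and -0.10. The genes that met the criterion in the filtered fit were Spi1 (-1.13), the myeloid factor PU.1, and Csf2rb (-1.03), the receptor chain shared by interleukin-3 and GM-CSF.

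Among lipid mediator genes, 1 of 7 met the criterion, Alox5ap, the partner of 5-lipoxygenase (log2 fold change -1.09). Over all loci tested, 2.39% met it in the lower direction. The median of the list was -0.37 by title and 0.06 by genotype entry. Hpgds, which makes prostaglandin D2, had a log2 fold change of -0.88, and Ltc4s, which makes leukotriene C4, one of -0.37. Hnmt, which inactivates histamine, was the 1 gene of 5 tested in the list of histamine breakdown and receptors, with a log2 fold change of -0.67 by title and 0.31 by genotype entry, and 0 met the criterion. Of 8 substrates, inhibitors and relatives of the proteases, 4 were tested and Serpinb1a, an inhibitor of chymotrypsin-like proteases, met it (-1.04), with a median log2 fold change over the 4 of -0.86 by title and -0.19 by genotype entry. Serpinb1a, lowest at 0.79 FPKM, did not reach 1 FPKM in all 3 titled NPRC-/-ApoE-/- libraries, so nothing is read from its call. Agt, angiotensinogen, is the precursor of the angiotensin I that chymases and the converting enzyme turn into angiotensin II. Agt was below the filter at 0.59 to 0.87 FPKM by title in ApoE-/- and 0.10 to 0.17 FPKM in NPRC-/-ApoE-/-. The fit on all loci gave Agt a log2 fold change of -2.49 (standard error 0.29, adjusted p = 0.0846 in edgeR's quasi-likelihood test). Ace, the converting enzyme, had a log2 fold change of 0.19.

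Markers of other aortic cells were measured beside the proteases. The dendritic cell sum had no overlap between the titled groups, while the sums of macrophage, smooth muscle, fibroblast and endothelial markers overlapped. Macrophage markers (Cd68, Adgre1, Csf1r, Lyz2 and Mrc1) summed to 538 to 1651 FPKM in the titled ApoE-/- libraries and 260 to 878 FPKM in the titled NPRC-/-ApoE-/- libraries, with 0 of 5 meeting the criterion and a median log2 fold change of -0.93. Dendritic cell markers were at 6.50 to 9.68 and 3.25 to 5.91 FPKM. Of 3 tested, 2 met the criterion in the lower direction, Cd209a (-1.68) and Ccr7 (-1.58), beside 2.39% of all loci tested. Zbtb46 did not (0.07). Cd209a and Ccr7, lowest at 0.46 and 0.29 FPKM, did not reach 1 FPKM in all 3 titled NPRC-/-ApoE-/- libraries, so nothing is read from this count. In the fit on all loci with a count 4 of 5 dendritic cell markers met it, beside 3.45% of loci. Smooth muscle markers were at 1289 to 1733 and 1667 to 2870 FPKM, with a median log2 fold change of 0.66 and 0 of 5 meeting it. Adventitial fibroblast markers summed to 222 to 581 and 116 to 306 FPKM, with a median of -0.71, and endothelial markers to 78.0 to 88.9 and 70.9 to 84.1 FPKM, with a median of -0.14, and 0 of 4 met the criterion in each list. By genotype entry the median log2 fold changes were -0.17 for macrophage, -0.27 for dendritic cell, 0.21 for smooth muscle, -0.04 for fibroblast and -0.02 for endothelial markers. Markers of neutrophils, T cells, B cells, red blood cells, and white and brown adipocytes overlapped between the titled groups, and those of dendritic cells, T cells, B cells, red blood cells and white adipocytes were highest in ApoE-/- 2, as the proteases were. The part of these cells in the protease values was not tested. Basophils share Fcer1a, Ms4a2, Hdc and Cpa3 with mast cells, and their proteases Mcpt8 and Prss34 had 15 and 51 counts over all 8 libraries. The other markers of the basophil list, which other cells also transcribe, were Il4 with 397 counts, Cd200r3 with 3096 and Il3ra with 6023. The 5 summed to 3.11 to 5.34 FPKM in the titled ApoE-/- libraries and 2.34 to 6.70 FPKM in the others, with overlap.

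Summed over Cpa3, Mcpt4, Cma1 and Tpsb2, the level was 8.81, 19.4, 6.55, 6.03 and 12.9 FPKM in ApoE-/- 1 to 5 and 2.55, 3.12 and 3.11 FPKM in NPRC-/-ApoE-/- 1 to 3. Adgre1 and Csf1r, which encode a macrophage surface protein and the macrophage growth factor receptor, summed to 41.7, 64.6, 76.4, 73.9 and 34.6 FPKM and to 46.4, 23.2 and 20.5 FPKM. The order of libraries differed between the sums, since ApoE-/- 5 was second in the proteases and sixth in the macrophage genes. Protease level per 100 FPKM of the macrophage pair was 21.1, 30.1, 8.57, 8.16 and 37.3 in ApoE-/- 1 to 5 and 5.50, 13.5 and 15.2 in NPRC-/-ApoE-/- 1 to 3. That ratio and the macrophage sum overlapped between the titled groups. The protease sum did not, which the choice of 4 genes without overlap fixes, so it was given no test. Relative to Kit, the protease sum was 3.34 to 11.7 in ApoE-/- and 1.03 to 6.0 in NPRC-/-ApoE-/-, with overlap. Under the genotype entry the protease sums of the groups overlapped, at 2.55 to 19.4 and 3.11 to 12.9 FPKM.

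**Figure D4:**
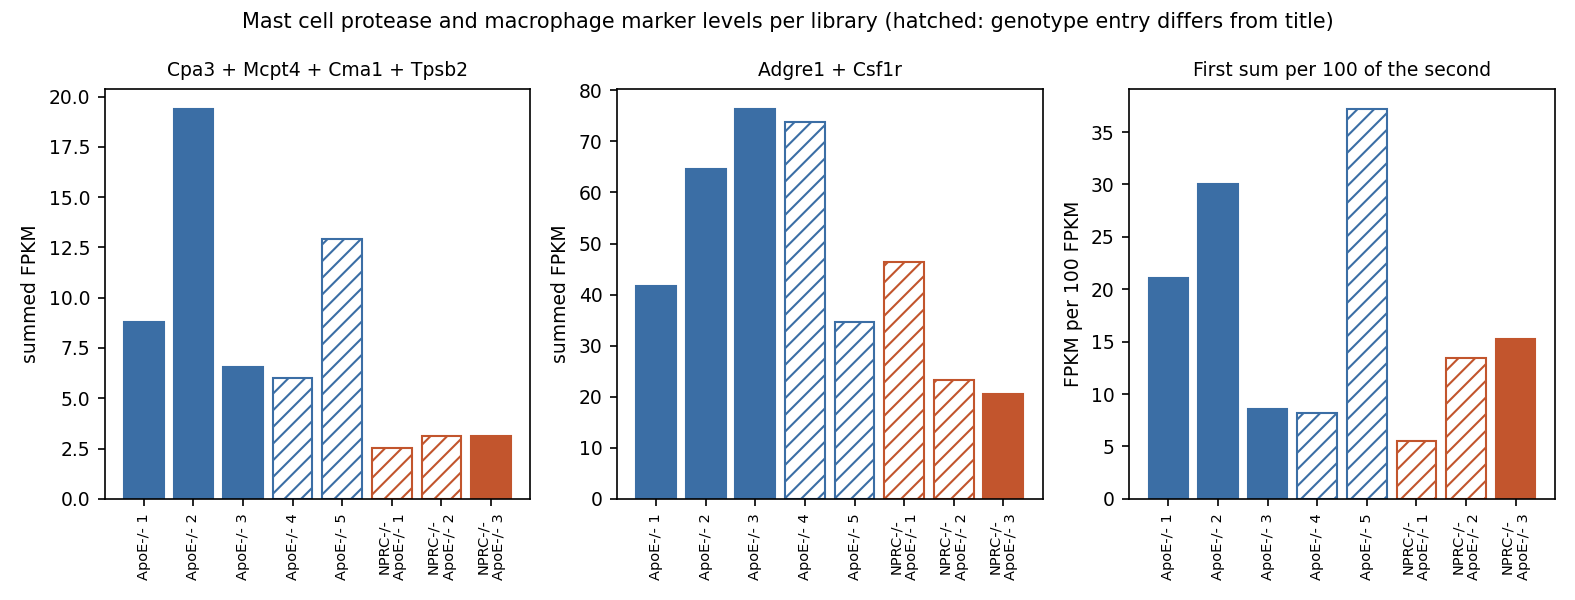
Bars give, for each library, the summed FPKM of 4 mast cell proteases, that of 2 macrophage genes, and the first per 100 FPKM of the second, coloured by title and hatched where the genotype entry differs. The protease sum is 2.55 to 3.12 in the titled NPRC-/-ApoE-/- libraries and 6.03 or more in the others, and the ratio overlaps.

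The loci whose pattern was most like the mean of the 5 tested genes were sought among 18451 loci with 1 gene symbol and at least 50 counts, by Pearson's r of log2 CPM over the 8 libraries. The 10 with the highest r (0.93 to 0.97) were Inka1, Dpp4, Itm2a, Scn7a, Rsl1, Cd209f, Gm20559, Sema6a, Cadm4 and Rsad2. The 8 libraries cover both titled groups, so the r values include the difference between the titles. Log2 fold changes of the 10 loci by title, whose direction follows from this choice, ran from -1.28 (Itm2a, a membrane protein) to -0.34 (Sema6a, a semaphorin). Dpp4, a membrane peptidase also called CD26, was at 1.13 ± 0.31 FPKM (SD, n = 5) and 0.54 ± 0.09 (SD, n = 3).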

How the data were processed

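Values of 8 libraries of poly(A) RNA from whole mouse aorta were analysed, grouped by title and again by genotype entry. The authors removed low-quality bases (the submitters' notes name cutadapt 1.9 and FastQC), mapped the reads with HISAT2, assembled loci with StringTie, and deposited a whole-number count per locus and an FPKM value. The build in their notes is GRCm38. The step from assembly to counts and whether counting used strand are not given in the sources used here, so antisense reads cannot be told apart. The deposited FPKM values are normalized to length and mapped fragments and were used for levels. The deposited counts were fitted over the whole table with edgeR 4.0.16 (R 4.3.3, TMM, quasi-likelihood test, Benjamini-Hochberg adjustment over all loci tested), once on 20506 loci that reached 1 FPKM in 3 or more libraries and once on all 44689 loci with a count. Genes were called by the criterion of the study, an unadjusted p under 0.05 with more than 2-fold higher or less than 0.5 of the level. Single genes were compared with two-sided exact permutation tests. DESeq2 1.42.0, limma 3.58.1 with pseudocounts of 1 and 0.1, other scalings and filters, a replicate block and leaving out each library were tried as alternatives. The fit was tested on simulated data. Log2 CPM uses a prior count of 2. The 9 genes and the gene lists were chosen with earlier results of these data known. Genes named beyond the 9 come from those lists (an unadjusted p under 0.05, or a role) or are the 10 loci most like them. A planned correlation of Cpa3 with the other genes is not printed, as the titled groups lay apart. The p-values measure the spread between these libraries.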

Additional observations from a re-analysis of the deposited data

Results flagged for a closer look

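Among the 18 groups of 5 libraries examined (the 9 genes under both groupings), 1 held a library far from the others by Dixon's criterion at the 95% level, where chance gives about 0.9. Kit was at a log2 CPM of 2.56 in NPRC-/-ApoE-/- 2, the lowest of the 5 libraries entered Apoe-/-. In the grouping by title this library is 1 of 3, a group size that was not examined.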

How the results depend on the processing

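Of the 5 genes tested by title, 4 met the criterion under DESeq2, median-ratio scaling, upper-quartile scaling, a robust fit, limma on log2(FPKM + 0.1) and with every library left out in turn (4 to 4 genes, median log2 fold change -1.96 to -1.50). These fits used loci filtered once on all 8 libraries. The 4 genes passed that filter only through the titled ApoE-/- libraries, so nothing is read from this count. Limma on log2(FPKM + 1) called 2 (median -0.96), as that pseudocount is close to these levels. Without the filter on low values 7 of 9 were called, and 5 to 7 when a library was left out. A mean of at least 0.1 FPKM, an alternative chosen after seeing the data, as was the robust fit, gave 6 of 7, and a mean of at least 5 FPKM left none of the genes to test. Grouping by genotype entry gave 0 calls, with and without the filter, a median of -0.057, and a reversed direction for Mcpt4 (0.02), Fcer1a (0.29) and Ms4a2 (0.37). Kit ranged from -0.67 to 0.26 over the left-out libraries and reversed without NPRC-/-ApoE-/- 2. The labels themselves were not tested, and with the 4 libraries whose labels agree there is no test. Counts over all loci called ranged from 95 by genotype entry to 2287 without the filter, against 712 by title, and from 403 to 1635 when a library was left out, with the most without NPRC-/-ApoE-/- 1.

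Libraries with the same number in both titled groups share only that number. The correlation of their deviations was -0.27, -0.13 and -0.01. With the replicate block in these 6 libraries 4 genes were called, with a median of -1.74, as were 4 without it (-1.86), and in the fit on all loci with a count 6 of the 9 genes were called with it and 6 without it.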
